A study of Mus musculus with 6 samples.

Results

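The Krüppel-like factor (KLF) genes of mouse chondrocytes are described here: Klf2, Klf3, Klf4, Klf5, Klf6, Klf9, Klf10, Klf13 and Klf15. The 9 genes were taken by name, by matching the Ensembl identifiers of the expression matrix to GENCODE symbols, and make up 9 of its 22032 genes. They were chosen with earlier results of these data known. All 9 had a mean of at least 1 TPM (transcript abundance scaled by transcript length and to the same total in each sample) over the 6 samples, the minimum for testing, which 13125 genes reached. The remaining 17 genes of the KLF and SP family are used for comparison.

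KLF proteins are zinc-finger transcription factors that bind CACCC boxes and other GC-rich DNA through a conserved C-terminal domain, while their N-terminal parts recruit different coactivators or corepressors. Many members are themselves rapidly regulated at the transcript level by serum, shear stress, TGF-β, hormones or tissue handling. In skeletal tissue, KLF5 is known as a regulator of cartilage matrix breakdown during endochondral ossification, and KLF10 was first described as a TGF-β inducible gene of bone cells.

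RNA sequencing was performed on 3 embryonic and 3 adult samples of mouse knee cartilage, which the study used to compare mouse with human chondrocytes. The comparison between the mouse stages is made here. The embryonic samples are labelled 16.5 wks, a number that stands for the embryonic day, and the adult samples are labelled 2 months. In both groups, cells were sorted as negative for CD31, CD45, Ter119 and alkaline phosphatase (ALP) and positive for BMPR1B, a BMP receptor of superficial and transitional zone chondrocytes. The adult animals were male B6 mice according to the methods. Neither the sex and strain of the embryos nor the number of animals behind a sample was stated in the sources used here. Sex and strain therefore cannot be told apart from stage. No transgene or treatment is named for either group. Total RNA was amplified to cDNA before library construction according to the methods, whereas the labels name an mRNA kit. The methods state that replicates were biological, without saying whether the 3 samples of a stage came from separate animals or litters, so p-values measure the spread between these samples.

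The deposited values were log2(TPM + 1) and added up to 1000000 TPM in each sample, so sequencing depth was unknown from the values. The number of genes listed at 0 ranged from 7314 to 7656 in the embryonic and from 7570 to 8294 in the adult samples. The chondrocyte identity was checked with 8 cartilage genes, whose summed level was 21772 to 23556 TPM in the embryonic and 9325 to 12324 TPM in the adult samples. Of these 8 genes, 5 fell, 2 rose and 1 did not pass, where 21.4% of all tested genes fell and 23.9% rose. Sox9, the master regulator of chondrocytes, rose by 0.69 on the log2(TPM + 1) scale in the adult (limma, Benjamini-Hochberg adjusted p 0.01), and Col2a1, the main cartilage collagen, fell by 1.73 (limma adjusted p 0.00107). Matn3 and Col9a1, which encode other cartilage matrix proteins, were 91.2-fold and 43.1-fold lower in mean TPM. Comp, a matrix gene shared with tendon, rose by 1.89, while Col11a1 fell by 1.73 and Hapln1 by 0.72. Bmpr1b, which encodes the sorting marker, was at 20.3, 19.0 and 16.4 TPM in embryonic chondrocytes, compared with 4.51, 18.5 and 13.4 TPM in adult chondrocytes.

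All 9 KLF genes except Klf15 had a value above 0 in every sample. Klf4, a factor best known for cellular reprogramming and epithelial barrier formation, was the most abundant at both stages, with a mean of 685 TPM ± 24.6 (SD, n = 3) in the embryonic and 506 TPM ± 102 (SD, n = 3) in the adult samples. These means stood at the 98.5 and 98.1 percentile of all 13125 tested genes. Klf6, an injury-responsive activator, and Klf2, a flow-induced factor of quiescent endothelium and lymphocytes, followed in that order at both stages. TPM is scaled by transcript length, so that levels of different genes can be set side by side.

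In the embryonic samples, the order of mean TPM was Klf4, Klf6, Klf2, Klf10, Klf9, Klf5, Klf3, Klf13 and Klf15. The first 4 places were separated, since no sample of one gene reached the range of the next. The ranges of Klf9 and Klf5, of Klf5 and Klf3, and of Klf3 and Klf13 overlapped. In the adult samples, Klf4, Klf6 and Klf2 kept the first places, followed by Klf9, Klf13, Klf3, Klf10, Klf5 and Klf15. From Klf9 to Klf10, each gene overlapped with the next in the adult order, as did Klf5 and Klf15.

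**Figure D1:**
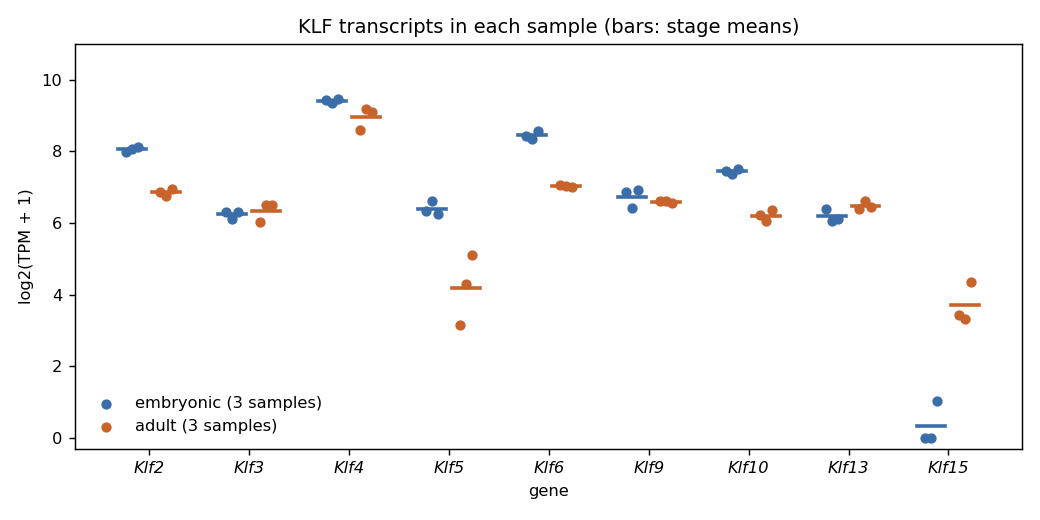
The level of each KLF gene in every sample is plotted as log2(TPM + 1) on the vertical axis, with the genes on the horizontal axis. Points are the 3 embryonic (blue) and 3 adult (orange) samples and short bars are stage means. The adult points of Klf2, Klf5, Klf6 and Klf10 lie well below the embryonic points, while those of Klf15 lie above.

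Between the stages, 5 of the 9 genes fell and 1 rose in the adult. Klf5, Klf6, Klf10, Klf2 and Klf4 were lower in adult chondrocytes, by 1.35-fold for Klf4 and by 2.30-fold to 4.20-fold for the others in mean TPM. Klf15 was the member that was higher. Klf3, Klf9 and Klf13 did not pass the test. Altogether 6 of 9 members passed, where 45.3% of all tested genes did in either direction. The 5 members that were lower stand beside 21.4% of all tested genes, and the 1 that was higher beside 23.9%. The 3 values of one stage did not overlap those of the other in 7 of 9 members, compared with 56.5% of tested genes.

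The test was limma on log2(TPM + 1) with the Benjamini-Hochberg adjustment over all 13125 genes, at a threshold of 0.05. The median difference of all tested genes was 0.16 on the log2(TPM + 1) scale (adult minus embryonic), and that of the 9 members was -0.46. Differences are given below against 0, so that relative to the typical gene the falls were larger by 0.16 and the rises smaller. In bulk samples, fewer cells of a type and less RNA per cell cannot be told apart.

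**Figure D2:**
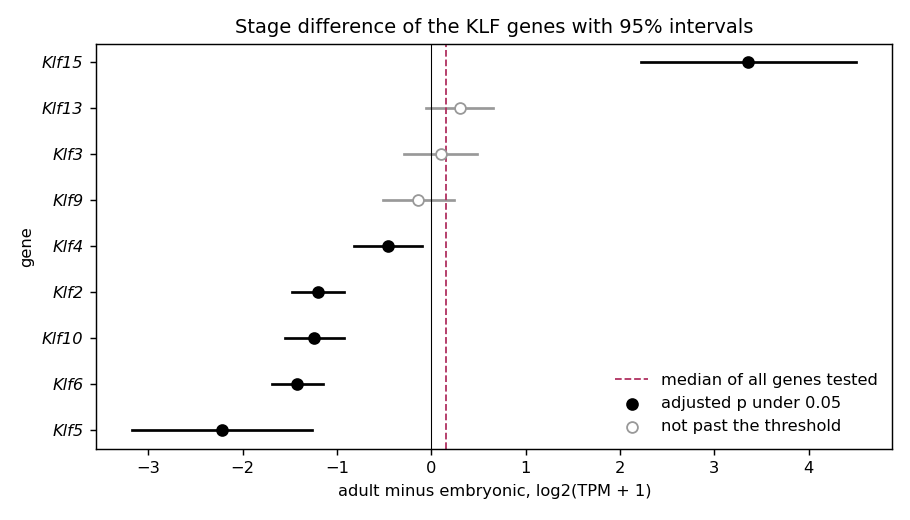
The difference of each KLF gene between the stages is plotted as adult minus embryonic on the log2(TPM + 1) scale, with its 95% interval from limma. Filled points passed the adjusted threshold of 0.05, open points did not, and the dashed line is the median of all tested genes, 0.16. The intervals of Klf2, Klf5, Klf6 and Klf10 end at or below -0.92, and that of Klf4 comes close to 0.

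Klf2 (ENSMUSG00000055148, chr8:72319033-72321656 of GRCm38, plus strand) was at 250.4, 267 and 279 TPM in the embryonic samples. The adult samples had 117, 107 and 122 TPM. All adult values were below all embryonic values, and both stages were tight. The mean fell from 8.06 ± 0.08 to 6.86 ± 0.09 log2(TPM + 1) (SD, n = 3 each), a difference of -1.20 with a standard error (SE) of 0.12 and an adjusted p of 0.000104 by limma. Klf2 maintains quiescence in endothelium and T cells.

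Klf4 (ENSMUSG00000003032, chr4:55527143-55532466, minus strand), the closest relative of Klf2 among the 9, was at 697, 657 and 701 TPM in the embryonic samples. In the adult samples it was at 389, 579 and 549.7 TPM. The stages did not overlap, but adult replicate 1 was far below the other two, and the coefficient of variation went from 3.59% in the embryonic to 20.2% in the adult samples. The difference was -0.46 (SE 0.16, 95% interval -0.82 to -0.09) with an adjusted p of 0.0439 by limma. The call was fragile. It was lost under 10 of 15 alternatives, among them quantile normalization (-0.25, adjusted p 0.243 by limma), and without adult replicate 1 the difference was -0.28 (adjusted p 0.0642 by limma).

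Klf5 (ENSMUSG00000005148, chr14:99298691-99315036, plus strand), a growth-associated activator, had the largest fall among the members. It was at 80.0, 96.7 and 75.0 TPM in embryonic chondrocytes, compared with 7.93, 18.6 and 33.3 TPM in adult chondrocytes. The adult samples differed from each other by more than those of the other abundant members, with a coefficient of variation of 63.9%, but each lay below the lowest embryonic sample. The difference was -2.21 on the log2(TPM + 1) scale (SE 0.42, 95% interval -3.17 to -1.26, limma adjusted p 0.00302). Its mean passed from the 82.0 to the 47.6 percentile of the tested genes.

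As for Klf4, the lowest adult value of Klf5 was that of replicate 1, which was also the adult sample with the lowest level of Bmpr1b. The part of Bmpr1b in these values was not tested. Without adult replicate 1, the difference of Klf5 was -1.70, and leaving out each of the other samples gave differences down to -2.67.

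Klf6 (ENSMUSG00000000078, chr13:5861482-5870394, plus strand) was at 345, 326 and 380.3 TPM in embryonic chondrocytes, compared with 132, 129.8 and 129 TPM in adult chondrocytes. The adult values were nearly identical, with a coefficient of variation of 1.39%, and far below every embryonic value. The mean fell from 8.45 ± 0.11 to 7.04 ± 0.02 log2(TPM + 1) (SD, n = 3 each). The difference was -1.42 (SE 0.12), and its adjusted p of 3.53e-05 by limma was the lowest among the members.

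Klf10 (ENSMUSG00000037465, chr15:38291463-38300706, minus strand), an antiproliferative repressor induced by TGF-β, was at 176, 164 and 181 TPM in the embryonic samples. The adult samples had 73.2, 65.3 and 80.9 TPM, all below the embryonic range. The mean fell from 7.44 ± 0.07 to 6.21 ± 0.15 log2(TPM + 1) (SD, n = 3 each), a difference of -1.24 (SE 0.14, limma adjusted p 0.000171). Klf10 was 2.37-fold lower in mean TPM, close to the 2.30-fold of Klf2 and the 2.69-fold of Klf6.

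Klf15 (ENSMUSG00000030087, chr6:90462576-90475238, plus strand), a regulator of amino acid and lipid metabolism known as a direct glucocorticoid target, went the other way. It was listed at 0 in embryonic replicates 1 and 2 and at 1.06 TPM in replicate 3. The adult samples had 9.84, 9.03 and 19.7 TPM, and each was above every embryonic value. The difference passed the test (limma adjusted p 0.000876), and its size of 3.36 on the log2(TPM + 1) scale depends on the pseudocount, being 5.74 with 0.1 TPM. No fold is given because a value of 0 can be a failed estimate. Even in the adult samples, Klf15 was the least abundant member, at the 37.5 percentile of the tested genes.

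The remaining 3 members have different known roles. Klf3 is a repressor that binds CtBP proteins, Klf9 is induced by thyroid hormone and glucocorticoids, and Klf13 is a Sin3A-binding factor of lymphocytes and heart. Klf9 (ENSMUSG00000033863, chr19:23141226-23168134, plus strand) was at 116, 83.9 and 121 TPM in embryonic chondrocytes, compared with 96.8, 97.3 and 93.7 TPM in adult chondrocytes. The adult values lay inside the embryonic range, and the difference was -0.14 (95% interval -0.51 to 0.24, limma adjusted p 0.528). Klf9 and Klf15, both known to be inducible by glucocorticoids, were thus called differently, and the difference between them was not tested.

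Klf3 (ENSMUSG00000029178, chr5:64803388-64832901, plus strand) was at 78.0, 68.7 and 78.2 TPM in embryonic chondrocytes, compared with 64.9, 89.3 and 89.0 TPM in adult chondrocytes. Adult replicate 1 was below all embryonic values and the other adult samples above them. The difference was 0.10 (95% interval -0.29 to 0.49, limma adjusted p 0.660), and it turned to -0.046 with median-of-ratios scaling. Of the 50-base words in its exons, 3.48% also occurred in other genes, and its exons overlap those of an antisense gene, Gm20033. Whether the counting used strand was not stated, so its level is less certain than those of the other members, in which at most 0.263% of such words were shared.

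Klf13 (ENSMUSG00000052040, chr7:63886351-63938915, minus strand) was at 83.2, 65.1 and 68.1 TPM in embryonic chondrocytes, compared with 83.3, 96.5 and 86.3 TPM in adult chondrocytes. The stages did not overlap, but the highest embryonic and the lowest adult value, both of replicate 1, nearly met. The difference of 0.30 (95% interval -0.05 to 0.65) had an adjusted p of 0.145 by limma. The 95% intervals of Klf3, Klf9 and Klf13 together span -0.51 to 0.65, so that the test does not show their levels to be equal at both stages.

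The 9 genes together summed to 1825, 1728 and 1885 TPM in the embryonic and to 974, 1192 and 1203 TPM in the adult samples. Every adult sum was thus below every embryonic sum, with means of 1813 ± 79.0 and 1123 ± 129 TPM (SD, n = 3 each). The makeup of the sum differed as well. The share of Klf4 went from 37.8% to 44.7%, while Klf6 went from 19.3% to 11.7% and Klf2 from 14.7% to 10.4%. Klf3, Klf9 and Klf13, which did not pass the test, had larger shares in the adult sum, with 7.18%, 8.63% and 7.94% as against 4.13%, 5.87% and 3.98%. Klf5 went from 4.65% to 1.72%. These shares are descriptions and were not tested.

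**Figure D3:**
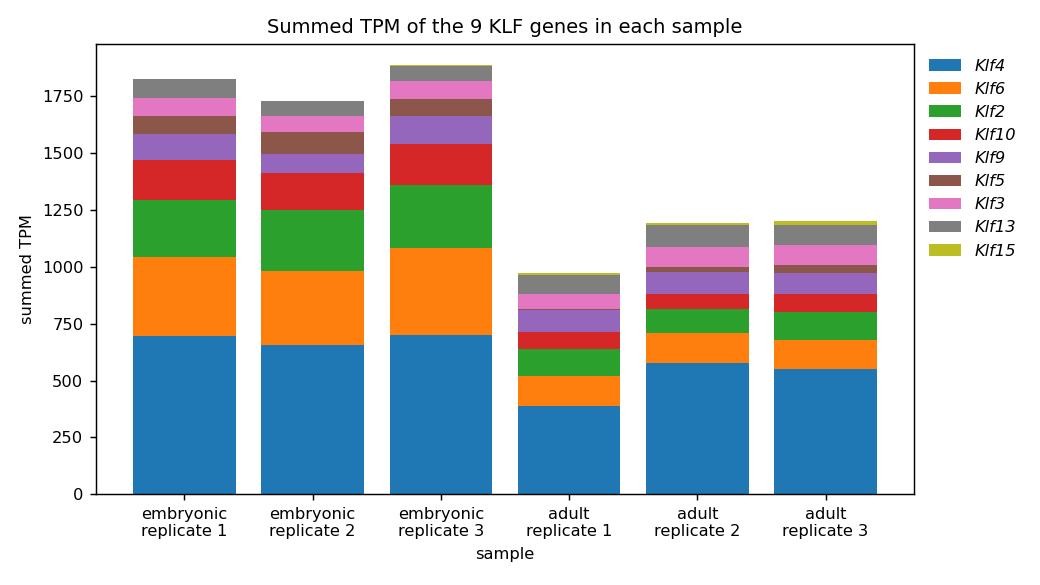
Each bar is the summed TPM of the 9 KLF genes in 1 sample, stacked by gene. Adult bars reach 974 to 1203 TPM and embryonic bars 1728 to 1885 TPM, and Klf4 is the largest part of each.

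The promoters of the 4 called members with a matched promoter are shown, with binding motifs of the KLF family itself and of MEF2 marked where present. MEF2 is the factor through which the kinase ERK5 is known to induce Klf2 and Klf4. Of these 4 windows, only that of Klf2 held a MEF2 core, and that of Klf4 held none. The bases lie upstream of the transcription start in RefSeq (GRCm38.p6) and were cut where a GENCODE gene begins earlier. Capitals mark CACCC boxes, GC boxes (GGGCGG) and the MEF2 core (CTA and TAG with any 4 bases between them), each on either strand, and GC boxes may overlap. The windows are chr8:72318812-72319032 for Klf2 (plus strand), chr4:55532476-55532725 for Klf4 (minus strand), chr13:5861239-5861481 for Klf6 (plus strand) and chr6:90462326-90462575 for Klf15 (plus strand).
Klf2: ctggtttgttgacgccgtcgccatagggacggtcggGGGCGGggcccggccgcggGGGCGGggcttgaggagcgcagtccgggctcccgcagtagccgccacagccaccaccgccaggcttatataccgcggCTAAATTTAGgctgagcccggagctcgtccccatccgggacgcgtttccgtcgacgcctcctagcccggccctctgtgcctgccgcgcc
Klf4: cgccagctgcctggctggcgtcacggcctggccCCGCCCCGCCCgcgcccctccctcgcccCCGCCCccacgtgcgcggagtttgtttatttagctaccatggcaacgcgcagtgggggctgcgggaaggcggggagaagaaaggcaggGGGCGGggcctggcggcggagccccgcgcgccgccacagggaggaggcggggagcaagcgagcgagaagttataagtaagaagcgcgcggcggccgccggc
Klf6: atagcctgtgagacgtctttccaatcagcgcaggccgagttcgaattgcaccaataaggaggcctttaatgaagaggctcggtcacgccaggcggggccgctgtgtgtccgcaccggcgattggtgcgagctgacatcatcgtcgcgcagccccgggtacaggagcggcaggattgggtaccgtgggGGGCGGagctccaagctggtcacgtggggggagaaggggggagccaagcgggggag
Klf15: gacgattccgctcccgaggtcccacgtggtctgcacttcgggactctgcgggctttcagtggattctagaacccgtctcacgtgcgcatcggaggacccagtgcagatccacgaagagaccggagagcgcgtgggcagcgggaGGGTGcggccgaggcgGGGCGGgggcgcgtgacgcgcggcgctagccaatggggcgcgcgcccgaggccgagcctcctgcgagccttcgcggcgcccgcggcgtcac

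The Klf2 window held 1 MEF2 core, CTAAATTTAG, which began 118 bases upstream of the start, and 2 GC boxes. A MEF2 core was found in 3.2% of the 32851 RefSeq promoters, searched over 250 bases, and in no other matched member. The windows of Klf2, Klf3 and Klf6 were cut to 221, 117 and 243 bases, so fewer bases were searched there than in the background. Klf4 had 4 GC boxes, Klf6 had 1, and Klf15 had 1 beside a CACCC box on the minus strand, which reads GGGTG. GC boxes occurred in 32.7% and CACCC boxes in 52.0% of all promoters. Promoters were matched for 7 of the 9 members, without Klf5 and Klf10. Of the matched members that did not pass the test, Klf3 held 2 CACCC and 5 GC boxes, Klf13 held 1 and 3, and Klf9 held 1 CACCC box. The palindrome of the glucocorticoid receptor (GNACA and TGTNC with any 3 bases between them, either strand) was in 0.387% of promoters and in no matched member, Klf15 included.

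Among the other KLF and SP genes, 11 of 17 were tested, 3 fell, none rose and 8 did not pass, with a median difference of -0.19. Of all tested genes, 21.4% fell and 23.9% rose. Klf14, an intronless relative of Klf16, was at 9.33, 5.05 and 12.3 TPM in embryonic chondrocytes, compared with 0, 1.26 and 0 TPM in adult chondrocytes, and was called lower (limma adjusted p 0.00273). Klf16 fell by 1.09 (limma adjusted p 0.0137). Sp3, a ubiquitous factor that competes with KLF proteins for GC boxes, fell by 0.45 (limma adjusted p 0.025). Sp1 differed by 0.11 (adjusted p 0.505) and Klf11, the closest relative of Klf10, by 0.26 (adjusted p 0.493), neither of which passed in limma. Klf17 and Sp8 were listed at 0 in all 6 samples. The calls of Klf16 and Sp3 were lost under 2 and 6 of 15 alternatives. The summed level of these 17 genes was 359.7 to 409 TPM in the embryonic and 332 to 379 TPM in the adult samples. These sums overlapped, unlike those of the 9 members. Because the 9 members were chosen with earlier results of these data known, this contrast is a description and was not tested.

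Upstream of KLF genes, 10 kinases, MEF2 factors and ubiquitin ligases were examined, of which 2 rose, 1 fell and 7 did not pass, with a median of 0.23. The shares of all tested genes were 23.9% higher and 21.4% lower. Mef2a, a MEF2 factor, was at 474, 463 and 452 TPM in embryonic chondrocytes, compared with 175, 186 and 209 TPM in adult chondrocytes. It was lower in every adult sample and fell by 1.28 on the log2(TPM + 1) scale (limma adjusted p 6.07e-05). Mef2d rose by 0.52 (limma adjusted p 0.00583), so 2 MEF2 genes went opposite ways. Smurf1, a ubiquitin ligase of the BMP and TGF-β pathways, rose by 0.64. Mapk7, which encodes ERK5, differed by 0.36 and did not pass (limma adjusted p 0.242).

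Of 13 cofactors through which KLF proteins act, 6 fell, 4 rose and 3 did not pass, with a median of -0.26. By comparison, 21.4% of all tested genes fell and 23.9% rose. Kat2b, the acetyltransferase PCAF, fell by 1.18, while its paralog Kat2a rose by 1.57 (limma adjusted p 0.000937 and 0.00135). Of the histone deacetylases, Hdac1 fell by 0.73 and Hdac2 fell by 0.72, and Ctbp2, a corepressor bound by Klf3, fell by 0.69. Crebbp fell by 0.40. Of the Sin3 complex, which Klf9, Klf10 and Klf13 can recruit, Sin3a rose by 0.68, Sap30 by 1.07 and Sin3b fell by 0.39, the last being named after its value was seen. Ncor1 rose by 0.46. The calls of Sin3a, Sin3b, Crebbp and Ncor1 were lost under 7, 9, 8 and 1 of 15 alternatives.

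Of 17 genes known as KLF targets in other tissues, 14 were tested, 4 rose and 5 fell, with 5 not passing and a median of 0.28. Over all tested genes, 23.9% rose and 21.4% fell. Ccnd1, which encodes cyclin D1 and is activated by KLF5 in proliferating cells, was at 78.7, 60.3 and 73.1 TPM in embryonic chondrocytes, compared with 8.70, 4.49 and 3.51 TPM in adult chondrocytes. It was lower in every adult sample and fell by 3.52 (limma adjusted p 5.84e-05). Plau, a protease gene, fell by 2.20, and Smad7 and the receptor gene Tgfbr1, both of the TGF-β pathway, were also lower: Smad7 fell by 1.19 and Tgfbr1 fell by 1.12. Slc2a4, the insulin-responsive glucose transporter and a known target of KLF15 in muscle, had 4.17, 4.73 and 4.24 TPM in embryonic chondrocytes and was listed at 0 in all adult samples.

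The target genes that rose were Ccl5, Lgals3, Thbd and Cdkn1a. Ccl5, a chemokine activated by KLF13 in T cells, was at 0.619, 3.16 and 1.47 TPM in embryonic chondrocytes, compared with 144, 97.4 and 16.7 TPM in adult chondrocytes. Thbd, the thrombomodulin gene induced by KLF2 and KLF4 in endothelium, rose by 1.50 (limma adjusted p 0.00234), while Klf2 and Klf4 themselves were lower. Cdkn1a, the p21 gene activated by KLF4 and KLF6, rose by 1.00 (limma adjusted p 0.00311), while Klf4 and Klf6 were lower. The call of Klf4 was fragile, and the part of KLF factors in the values of the target genes was not tested. Lgals3 rose by 2.39.

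Of 15 glucocorticoid response genes, 14 were found and 13 tested, of which 8 rose, 1 fell and 4 did not pass, with a median of 0.82. These counts stand beside 23.9% of all tested genes higher and 21.4% lower. Pdk4, which restrains glucose oxidation, was at 5.52, 4.17 and 4.06 TPM in embryonic chondrocytes, compared with 65.0, 84.6 and 112 TPM in adult chondrocytes. It was higher in every adult sample, as was Klf15, and the difference was 3.96 (limma adjusted p 1.34e-05). The metallothionein genes Mt1 and Mt2 rose by 2.65 and 2.28, the glutamine synthetase gene Glul by 1.93 and the kinase gene Sgk1 by 1.40. Nr3c1, the receptor gene, rose by 0.68 and was named after its value was seen, and Errfi1 fell by 0.41. The 4 that did not pass were Per1 (-0.43), Fkbp5 (-0.28), Ddit4 (-0.14) and Zbtb16 (0.30), also named after their values were seen. All adult values of Per1 and Fkbp5 were below all embryonic values, and those of Zbtb16 were above. The calls of Nr3c1 and Errfi1 were lost under 6 and 10 of 15 alternatives. The part of glucocorticoids in the KLF values, Klf15 included, was not tested.

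Several KLF genes are also known to respond within minutes to enzymatic tissue digestion, so 14 immediate early and dissociation genes were set beside them. Of these, 5 rose, 4 fell and 5 did not pass, with a median of 0.24, where 23.9% of all tested genes rose and 21.4% fell. Atf3, a stress-induced factor, was at 627, 645 and 685 TPM in embryonic chondrocytes, compared with 80.5, 119.8 and 138 TPM in adult chondrocytes. It was lower in the adult, as were Klf2, Klf6 and Klf10. Nr4a1 fell by 2.90, Fosb fell by 1.29 and Jun fell by 0.93. In the opposite direction, Hspa1b rose by 2.47, Dusp1 by 1.04, Btg2 by 0.81, Junb by 0.75 and Ier3 by 0.63. Hspa1b is nearly identical to Hspa1a, so its level is uncertain, and Dusp1 also belongs to the glucocorticoid list. The calls of Btg2 and Ier3 were lost under 2 and 4 of 15 alternatives. The summed level was 4456 to 5088 TPM in the embryonic and 4564 to 6043 TPM in the adult samples, and the part of tissue digestion in the KLF values was not tested.

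**Figure D4:**
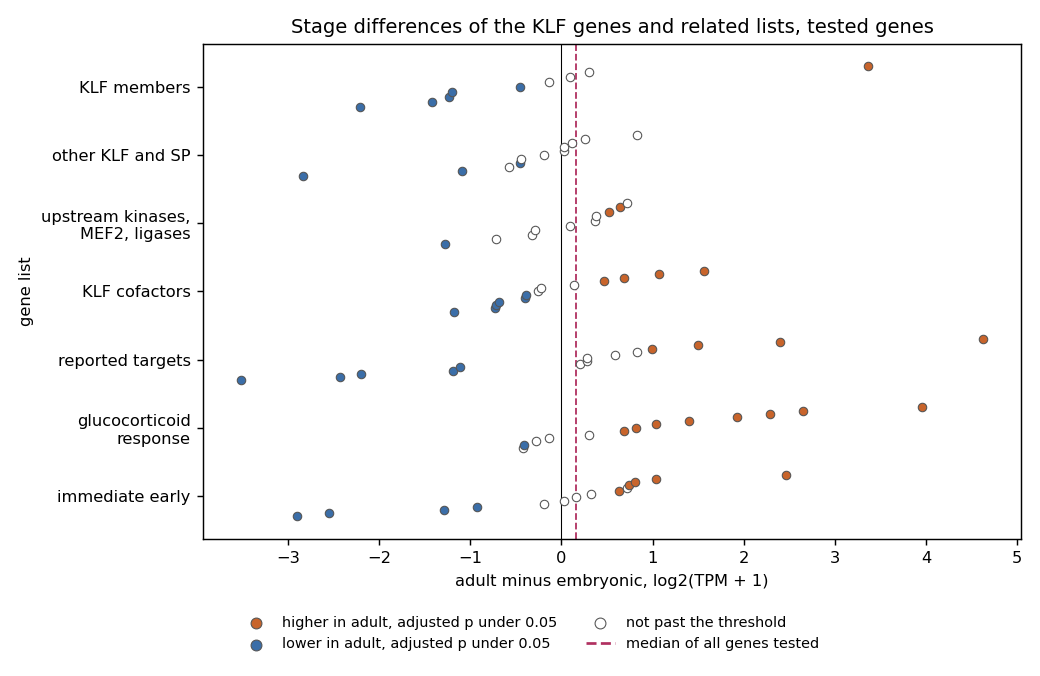
Each point is 1 tested gene, placed by its difference between the stages (adult minus embryonic, log2(TPM + 1)) within the 9 KLF genes and 6 related lists. Orange and blue points passed the adjusted threshold of 0.05 as higher or lower in the adult, open points did not, and the dashed line is the median of all tested genes. Glucocorticoid response genes lie mostly to the right (median 0.82) and the KLF members mostly to the left (median -0.46).

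Klf2 and Klf4 are abundant in endothelium, Klf2 and Klf13 in leukocytes, Klf4 and Klf5 in epithelium and Klf15 in fat and muscle, so markers of these cells were measured in the same samples. Marker counts here and below stand beside 21.4% of all tested genes lower and 23.9% higher. The 9 endothelial markers summed to 13.1 to 45.7 TPM in the embryonic and to 7.73 to 19.4 TPM in the adult samples, with 1 of 5 tested lower and none higher. The one that fell was Tek, an angiopoietin receptor gene, the same direction as Klf2 and Klf4. Tek was at 9.21, 9.24 and 19.0 TPM in embryonic chondrocytes and 0.121, 0.792 and 0.889 TPM in adult chondrocytes (limma adjusted p 0.000976). Without Tek the sums were 3.88 to 26.7 TPM in the embryonic and 6.84 to 18.6 TPM in the adult samples, and overlapped. Pecam1 went the other way, at 1.48, 1.29 and 1.75 TPM in embryonic and 2.79, 6.87 and 2.86 TPM in adult chondrocytes. It did not pass (limma adjusted p 0.123). Among the defining markers, Cdh5 reached at most 2.36 TPM and Pecam1 at most 6.87 TPM, both in adult replicate 2, and Emcn reached 10.4 TPM in embryonic replicate 3. The part of endothelial transcripts in the Klf2 and Klf4 values was not tested. The 8 leukocyte markers summed to 6.60 to 13.8 TPM and to 20.9 to 71.8 TPM, with 2 of 5 tested higher and none lower in the adult. These were Cd68, a lysosomal gene of macrophages, with 4.22, 5.87 and 12.6 TPM in embryonic and 33.3, 17.2 and 27.5 TPM in adult chondrocytes (limma adjusted p 0.00967), and Itgam, an integrin gene of myeloid cells, with 0.399, 0.573 and 1.04 TPM in embryonic and 18.2, 1.37 and 12.1 TPM in adult chondrocytes (limma adjusted p 0.0308, lost under 7 of 15 alternatives). Ptprc, which encodes the CD45 that was sorted against, reached at most 2.29 TPM. The part of leukocyte transcripts in the KLF values was not tested.

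The 8 keratinocyte markers summed to 39.2 to 51.7 TPM in the embryonic and to 2.29 to 10.1 TPM in the adult samples, lower in the adult as Klf5 was, with 1 of 3 tested lower. Most of the embryonic sum was Epcam, an epithelial adhesion gene, which was at 45.5, 48.0 and 33.3 TPM in embryonic chondrocytes and at 0, 4.75 and 0 TPM in adult chondrocytes and was called lower (limma adjusted p 0.000682). Without Epcam the sums were 3.77 to 5.86 TPM and 2.29 to 5.30 TPM. Krt5 and Krt14, the defining keratins, were listed at 0 in all 6 samples. The part of epithelial transcripts in the Klf5 values was not tested. The 6 adipocyte markers summed to 22.9 to 48.7 TPM and 18.1 to 43.3 TPM, mostly from Fabp4, a lipid-binding protein gene that endothelium also expresses, and overlapped between the stages. Cd36, a fatty acid receptor gene, was higher in the adult, as Klf15 was, with 0.933, 0.784 and 1.23 TPM in embryonic and 3.19, 5.48 and 4.23 TPM in adult chondrocytes (limma adjusted p 0.0265, lost under 4 of 15 alternatives), the 1 of 2 tested that passed. Adipoq was listed at 0 in all samples, and the part of adipocyte transcripts in the Klf15 values was not tested. The 8 muscle markers summed to 22.3 to 26.6 TPM and 1.59 to 21.0 TPM, and the 7 erythroid markers to 7.77 to 257 TPM and 12.4 to 47.5 TPM, none of either passing.

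Markers of the tissues next to cartilage were measured as well. The 7 osteoblast markers summed to 34.7 to 68.7 TPM in the embryonic and to 289 to 441 TPM in the adult samples, with 3 of 7 higher and 1 lower. Most of the adult sum was Ibsp, a bone matrix gene, and without it the sums were 34.5 to 39.0 TPM and 53.4 to 133 TPM. Alpl, which encodes the ALP that was sorted against, rose by 1.13 (limma adjusted p 0.00292). The other riser, Bglap, had 0 TPM in each embryonic sample and 26.8, 15.8 and 83.9 TPM in adult samples (limma adjusted p 0.000205). The 1 that fell was Dmp1, with 10.6, 16.3 and 10.1 TPM in embryonic and 0.0611, 0.0633 and 3.51 TPM in adult chondrocytes. Dmp1 fell by 2.92 (limma adjusted p 0.00495). Ifitm5, Phex and Sp7 did not pass, with differences of -0.46, -0.54 and -0.58. The 7 tendon and fibroblast markers summed to 823 to 1074 TPM and to 5284 to 6663 TPM, with 1 of 7 higher and 3 lower. The riser was Dcn, the gene of the matrix proteoglycan decorin, with 217, 241 and 326 TPM in embryonic and 6348, 5026 and 5549 TPM in adult chondrocytes. Without Dcn the sums were 582 to 790.4 TPM in the embryonic and 258 to 333 TPM in the adult samples, the opposite order. The tendon genes Scx and Tnmd were at 32.6 to 44.2 and 108 to 262 TPM in embryonic chondrocytes and at no more than 4.59 and 2.11 TPM in adult chondrocytes, and Cd34 fell by 1.75 (limma adjusted p 5.45e-05). The part of bone and fibrous tissue transcripts in the KLF differences was not tested.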

How the data were processed

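Expression was measured by RNA-seq in 3 embryonic and 3 adult samples. The authors mapped single-end reads to GRCm38, estimated levels with RSEM (version not given in the sources used here) and deposited log2(TPM + 1) per gene. All columns were used (0 left out). TPM keeps no depth, so precision rests on the spread between samples.

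Symbols and positions came from GENCODE M21: 21902 identifiers had a symbol, 130 had none, and for 3 symbols on more than 1 identifier the higher mean was used. Of 161 list genes 160 were found, all but Cebpd.

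Stages were compared with limma 3.58.1 in R 4.3.3 (lmFit, eBayes with trend, two-sided) on log2(TPM + 1), which holds a pseudocount of 1. Genes were kept when their mean reached 1 TPM, and p-values were adjusted by Benjamini-Hochberg over these genes with a threshold of 0.05. EBSeq, named in the methods, needs counts and was not used. On simulated data, 89 of 200 changed genes among 13125 and 5 unchanged genes were called, with 59.1% of changes of 2 and 24.7% of changes of 1 (log2) recovered. Far fewer genes were changed there than the 45.3% called in the data, and the Benjamini-Hochberg adjustment depends on that share. These recovery rates therefore do not give the sensitivity of the test on the data. The members and lists were chosen with earlier results of these data known. All 9 members were named, and from each list up to 5 called genes in each direction, any KLF or SP gene, and defining cell type markers, with exceptions stated. For each member, the 2 tested genes outside the family with the highest Pearson r were also named. Alternatives covered the pseudocount, filter, scaling, variance model, threshold, replicate block and each replicate left out. Marker sums without 1 gene were added after seeing the data. Promoters came from RefSeq (GRCm38.p6).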

Additional observations from a re-analysis of the deposited data

How the results depend on the processing

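Over the 9 KLF genes and 15 alternatives each, 124 of 135 values kept their direction and their side of the threshold in limma. The exceptions were Klf3 and Klf4. Klf3 turned to -0.046 with median-of-ratios scaling (limma adjusted p 0.836), and Sp1 turned to -0.036 (adjusted p 0.84). Klf4 was no longer called without a filter or with eBayes without trend (both -0.46, limma adjusted p 0.0743 and 0.132), with quantile normalization (-0.25), without the 20 highest genes (-0.36, adjusted p 0.093), or with the replicate block (-0.46, adjusted p 0.0651). Leaving out 1 replicate gave -0.57 to -0.28 for Klf4, called only without adult replicate 2, and 5 to 6 called members. The causes were not tested.

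At an adjusted p under 0.01, limma called 3718 genes (1855 higher, 1863 lower), as against 5949 at 0.05, with 5 of the 9 KLF genes, 1 other KLF or SP gene and 5 cofactors. The other KLF and SP genes called ranged from 1 to 3 with 1 replicate left out, with 1 called without embryonic replicate 1 or 3. Cofactors called were 6 with eBayes without trend, and the upstream genes called were 5 with median-of-ratios scaling. The median difference of all genes was 0.03 with that scaling, 0.10 with quantile normalization and 0.25 when the 20 highest genes were left out. Calls in the higher and the lower direction numbered 3140 and 2809, as against 2613 and 3238 with median-of-ratios scaling. Low values followed the pseudocount, with Klf14 at -5.15 and Slc2a4 at -5.48 with 0.1 TPM. Errfi1 was -0.15 with quantile normalization (limma adjusted p 0.360), and Sin3a was 0.45 without adult replicate 2. Emcn, which was not called (-0.62), turned to 0.49 without embryonic replicate 3, and ranged from -1.27 to 0.49 with 1 replicate left out. Of 57 called list genes followed under the alternatives, 45 kept their calls at the threshold of 0.05. Single list genes were not followed at 0.01. Bglap, Dmp1, Col11a1, Hapln1, Per1, Fkbp5, Ddit4 and Zbtb16 were not followed under any alternative.

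Same-numbered samples did not deviate together over the tested genes (correlations of -0.00884, -0.0169 and -0.0223), so no pairing by number was seen. Such correlations cannot exclude a pairing that affects few genes. With the replicate block 5430 genes were called, 5 of them KLF genes.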

Other observations

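The tested genes outside the family whose log2(TPM + 1) followed each KLF gene most closely over the 6 samples are given as a description. The 6 points share the stage difference, so a gene with a large difference resembles many others. Klf2, Klf6 and Klf10 each had a Pearson r over 0.95 with 1189, 1245 and 1198 tested genes. Klf2 was nearest to Polq, a DNA polymerase gene, and Ssb, which encodes an RNA-binding protein (r 0.999 for both). Klf6 was nearest to Trpm5 and Lhfpl1, both listed at 0 in all adult samples, and Klf10 to Taf1d and Adamtsl3 (r 1.000 and 0.999).

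The members with smaller or less even differences had fewer such neighbours. Klf4 had 116, led by the kinase gene Sik3 (r 0.998) and Pym1 (r 0.994). Sik3 was at 123, 119 and 126 TPM in embryonic chondrocytes, compared with 72.2, 104.7 and 97.0 TPM in adult chondrocytes, with adult replicate 1 lowest as for Klf4. Klf5 had 345, led by Btc, which encodes the growth factor betacellulin (r 0.996), and Grasp (r 0.995). Btc was at 10.5, 13.7 and 9.87 TPM in embryonic chondrocytes, compared with 0, 1.84 and 4.54 TPM in adult chondrocytes, the same order of adult samples as in Klf5. Klf15 had 679, led by Trim65 and Krit1 (r 0.999 for both).

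Klf3, Klf9 and Klf13, which did not pass the stage test, had 24, 6 and 50 such neighbours. The nearest were Vasn and Dyrk3 to Klf3 (r 0.983 and 0.981), Nkain1 and Arhgap29 to Klf9 (r 0.991 and 0.982) and Tpr and Ino80dos to Klf13 (r 0.997 and 0.994).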
